A study of Mus musculus with 18 samples.

Results

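Control embryonic stem cells of the mouse line E14 were compared between day 6 and day 4 after a plasmid with an shRNA against GFP had been transfected. The comparison rests on the samples titled control at day 6 (3 arrays) and control at day 4 (3 arrays), 6 of the 18 arrays of the series, and the members were chosen by these titles alone. All 18 samples are E14 cells that took up pSUPER.puro with 1 of 2 inserts by lipid transfection, grew on gelatin in medium with 15% heat-inactivated serum and LIF, and were sampled at day 2, 4 or 6. Another pair of groups used here is cells that carry an shRNA against Esrrb at day 6 and at day 4 (knockdown cells, 3 arrays each). Esrrb is a nuclear receptor without a known ligand that upholds pluripotency. The last group used is control cells at day 2 (3 arrays). The control plasmid carries a hairpin of its own, so no group is untransfected, and the share of cells that took up the plasmid is not given in the sources used here. Replicates of a group are labelled biological, but no label says that they came from separate cultures, so the p-values measure the spread between these samples. Each of 3 BeadChips held 1 array of every group, and a group kept 1 position on all of them, so effects of position and of group cannot be told apart.

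Mouse embryonic stem cells are the cultured counterpart of the preimplantation epiblast. LIF acts through STAT3, and factors in serum act through BMP receptors and the Id genes, to hold back differentiation, while autocrine Fgf4 signalling through ERK favours exit from the naive state. The cells divide rapidly with a short G1 phase, and nutrient supply, cell density and stress signals all act on that cycle and on metabolism.

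Expression is given as log2 normalized intensity, on which a step of 1 is a 2-fold difference, and the change is day 6 minus day 4. Values of a gene are listed in the order of replicates 1, 2 and 3. Levels of different genes come from different probes and are not set against each other. Of 46643 probes, a median of 37 beads stood behind each value. Median raw intensity was 65.2 to 75.2 at day 6 and 63.4 to 70 at day 4, and the share of probes detected was 40.2% to 40.8% at day 6 and 37.7% to 39.96% at day 4. The median SD between replicates was 0.0953 at day 6 and 0.1224 at day 4. On the first principal component of the 9 control arrays, with 62.73% of the variance, the day 2 arrays lay at -31.74 to -29.63, the day 4 arrays at -5.97 to -5.15 and the day 6 arrays at 35.97 to 36.56. Markers of the labelled cell type were present: all 7 stem cell markers measured (Pou5f1, Sox2, Nanog, Zfp42, Tdgf1, Utf1 and Sall4) were detected on all 6 arrays. Their summed signal was 17270 to 17700 at day 6, against 17840 to 18450 at day 4, and 4 of the 7 were called lower and 1 higher.

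The first question was which genes changed in control cells between day 4 and day 6. Cell cycle entry genes, cholesterol synthesis genes, Nodal pathway genes, ribosome biogenesis genes and part of the general pluripotency genes were lower at day 6, while p53 targets, lysosome and autophagy genes, amino acid stress genes and part of the trophectoderm genes were higher. In the limma fit over all 14534 genes tested, 5186 (35.7%) passed an adjusted p of 0.05 (Benjamini-Hochberg). Of these, 2794 (19.2%) were higher and 2392 (16.5%) lower at day 6. Changes of 2-fold or more were made by 393 genes (2.7%), 198 higher (1.36%) and 195 lower (1.34%), so that 4793 called genes changed by less. The median absolute change was 0.22, against a median standard error of 0.12. The median change of all genes was -0.00018. All 3 BeadChips gave 1 direction for 99.2% of the called genes, and for 64.9% of all genes tested. The split between higher and lower depended on the scaling: with median centring in place of quantile normalization the median of all genes moved to 0.12, and 3725 genes were higher and 1130 lower. A direction for a gene that changed by less than that shift therefore rests on the scaling.

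**Figure D1:**
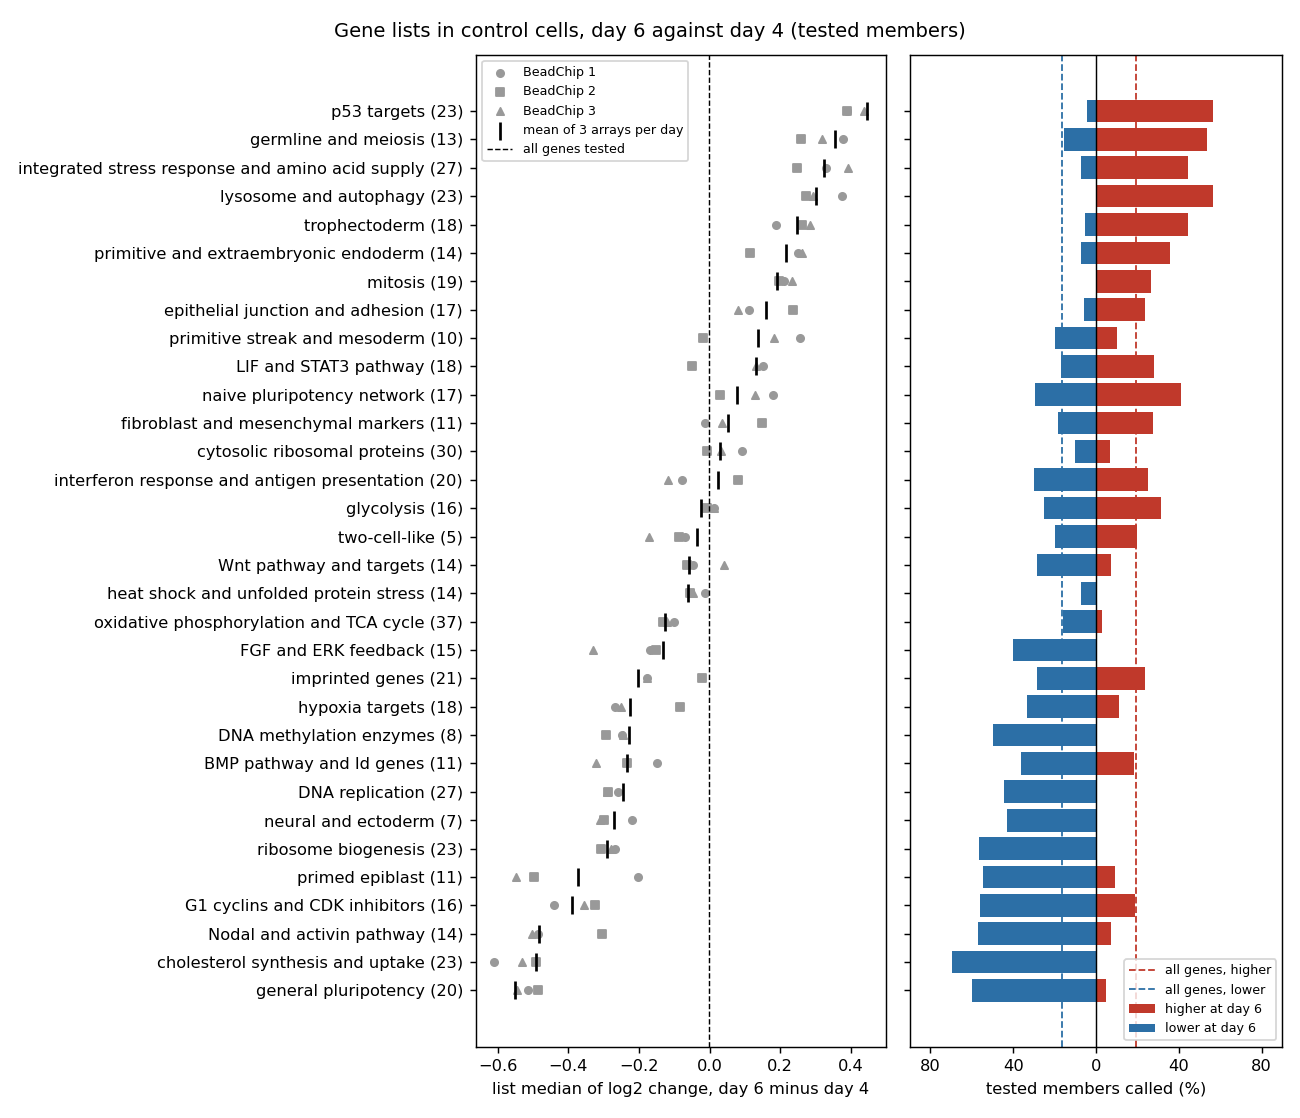
Left, the median log2 change (day 6 minus day 4, control cells) of the tested members of each gene list, with the number tested in brackets; grey symbols are the medians on each BeadChip, black ticks the medians of the 3-array means, and the dashed line the median of all genes. Right, the percent of tested members called higher (red) and lower (blue) at day 6, with dashed lines at the shares of all genes (19.2% and 16.5%). General pluripotency and cholesterol synthesis lie lowest, at -0.55 and -0.49, and p53 targets highest, at 0.45. Some genes stand in several lists and count in each, so the lists are not independent.

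The cyclins that drive G1 fell together. Of 18 genes listed as G1 cyclins and CDK inhibitors, 16 were tested, 9 were lower and 3 higher at day 6, with a median change of -0.39. Ccnd2 (cyclin D2), which binds Cdk4 and Cdk6 in G1, read 7.82, 7.61 and 7.53 at day 6, against 10.21, 10.02 and 10.04 at day 4. That is a 5.42-fold lower signal (log2 change -2.44, SE 0.11, limma adjusted p = 5.09e-11), and the arrays of the 2 days lie far apart. A second detected Ccnd2 probe changed by -2.90, while the other, detected on 1 of the 6 arrays, changed by -0.47. Ccnd1 (cyclin D1) read 9.82, 9.86 and 9.92 at day 6, against 11.36, 11.54 and 11.30 at day 4, a change of -1.53 (SE 0.10, limma adjusted p = 1.34e-09). The other 4 Ccnd1 probes changed by -1.21 to -2.04. The cyclins E, partners of Cdk2 at the start of S phase, were lower too: Ccne2 averaged 5.85 at day 6 and 6.93 at day 4 (change -1.08, SE 0.10), and Ccne1 averaged 10.32 and 11.26 (change -0.94, SE 0.09). Their kinases Cdk6, Cdk4 and Cdk2, and Ccnd3, changed by -0.33 to -0.55 and are named after their values were seen. The 3 genes that rose restrain the cycle: Cdkn1a (p21, a CDK inhibitor) by 0.92, Rb1 (the retinoblastoma protein, which holds back E2F) by 0.92 and Cdkn2a by 0.56. Cdkn1c (p57), also an inhibitor, fell by 0.96.

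Genes of DNA replication and of mitosis had medians on opposite sides of 0. Of 27 tested replication genes (29 listed), 12 were lower and 0 higher, with a median of -0.25. The largest fall was that of Cdc6, which loads the MCM helicase, at 9.01, 9.02 and 8.99 on day 6, against 9.78, 9.87 and 9.80 on day 4 (change -0.81, SE 0.10, limma adjusted p = 5.13e-06). Rrm1 and Rrm2, the subunits of ribonucleotide reductase, fell by 0.75 and 0.61, and Gins1, of the replicative helicase, by 0.65. Another Rrm2 probe changed by -0.58, while a dim one, detected on 3 of the 6 arrays, rose by 0.15. With median centring, 6 replication genes were lower. Of 19 tested mitosis genes (25 listed), 5 were higher and 0 lower (1 lower with a replicate block for the BeadChip), with a median of 0.19, and the share called higher, 26.3%, was not far from that of all genes. Plk1, a mitotic kinase, read 12.05, 12.20 and 12.20 at day 6, against 11.67, 11.84 and 11.66 at day 4 (change 0.43, SE 0.09, limma adjusted p = 0.000739). Ccnb1 (cyclin B1), Cenpa (centromeric histone) and Cdc20 (activator of the anaphase-promoting complex) rose by 0.51, 0.51 and 0.42.

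The p53 targets were the list with the highest median, 0.45, and 13 of 23 tested (24 listed) were higher and 1 lower. Ccng1 (cyclin G1) read 12.43, 12.25 and 12.44 at day 6, against 11.27, 10.92 and 11.19 at day 4. The difference was 2.38-fold (log2 change 1.25, SE 0.12, limma adjusted p = 2.11e-07). The days do not overlap, which held for 50.1% of all genes tested. Its other 3 probes changed by 0.43 to 0.69. Mdm2, the ubiquitin ligase that degrades p53, read 12.87, 12.88 and 12.85, against 11.91, 12.17 and 12.16, a change of 0.79 (SE 0.09), and a dim second probe changed by -0.01. Trp53inp1, which promotes p53 activity, rose by 0.80 and Cdkn1a by 0.92, from 2 probes at 0.92 and 0.94. The list member that fell was Bax, a pro-apoptotic gene, by 0.34, while Pmaip1 and Apaf1, 2 other apoptosis genes of the list, rose by 0.52 each. Trp53 itself is not in the list.

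**Figure D2:**
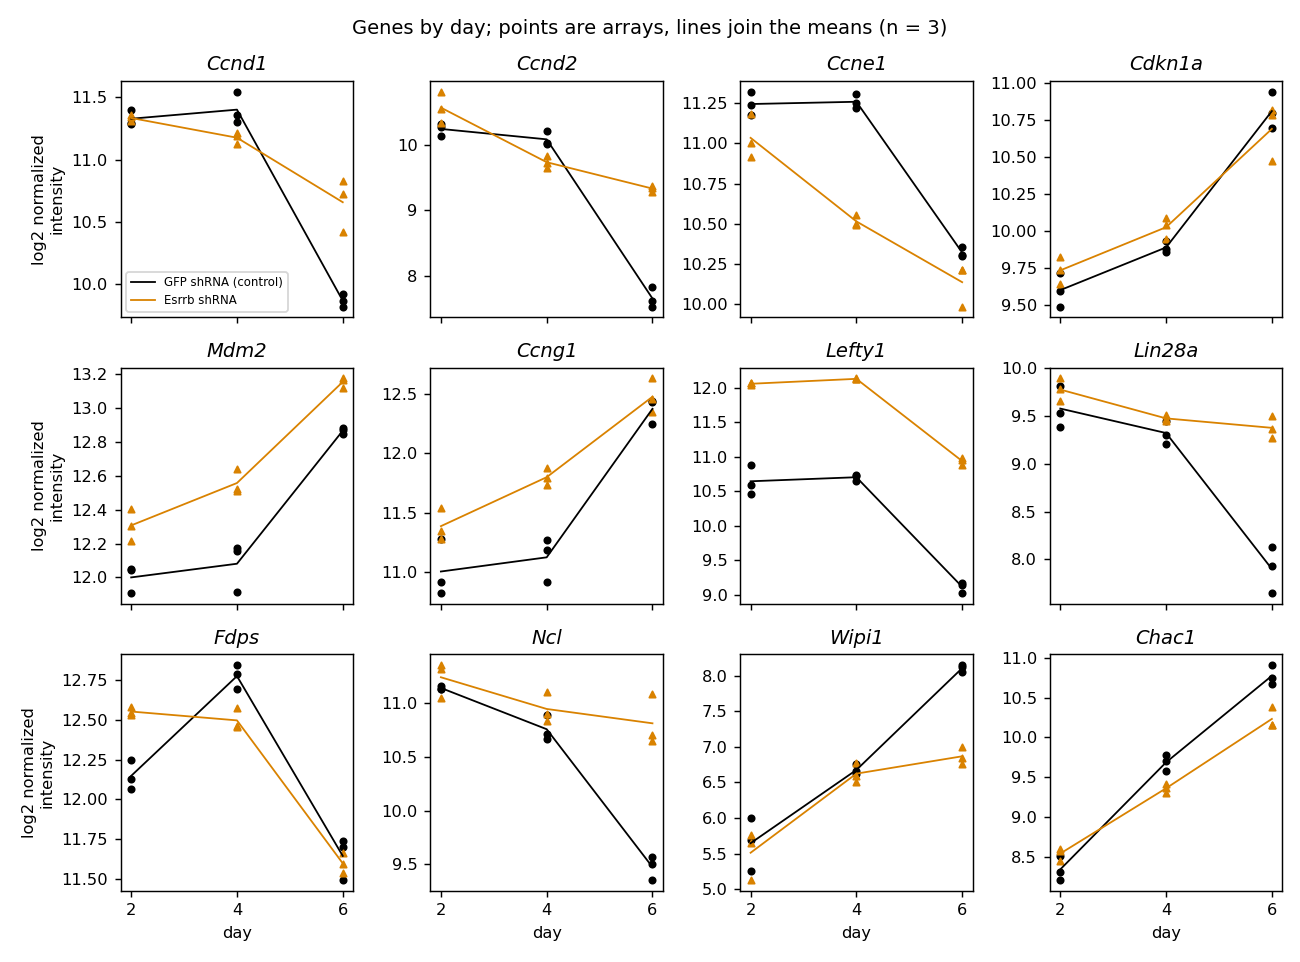
Log2 normalized intensity of 12 named genes at days 2, 4 and 6 in control cells (black circles) and Esrrb knockdown cells (orange triangles); each point is an array and lines join the means. In control cells Ccnd1, Ccnd2, Ccne1 and Lefty1 lie close together at days 2 and 4 and lower at day 6, while Wipi1 and Chac1 climb over both intervals.

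The control change from day 2 to day 4 shares its day 4 arrays with the change described here, so the 2 are given side by side only. Ccnd1, Ccnd2 and Ccne1 changed by 0.07, -0.16 and 0.01 between days 2 and 4, and by -1.53, -2.44 and -0.94 between days 4 and 6. For Ccng1 and Mdm2 the earlier changes were 0.12 and 0.08, and the later ones 1.25 and 0.79. The lists of p53 targets and G1 cyclins had medians of 0.12 and 0.02 in the earlier interval. Over all genes, 3407 (23.4%) were called between days 2 and 4, and the median absolute change was 0.18.

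Cholesterol synthesis genes fell together. Of 23 tested genes of cholesterol synthesis and uptake (24 listed), 16 were lower and 0 higher at day 6, with a median of -0.49 and BeadChip medians of -0.61, -0.49 and -0.53. Fdps, which makes farnesyl diphosphate, read 11.70, 11.74 and 11.49 at day 6, against 12.85, 12.79 and 12.70 at day 4. It was 2.19-fold lower (log2 change -1.13, SE 0.09, limma adjusted p = 1.43e-08), with -0.54 at a second probe. Lss, lanosterol synthase, read 8.37, 8.48 and 8.39, against 9.38, 9.38 and 9.33, a change of -0.95 (SE 0.11). Msmo1 and Dhcr7, which act late on the sterol ring, fell by 0.90 and 0.75. Srebf2, the transcription factor that turns these genes on, fell by 0.46 and is named after its value was seen. Between days 2 and 4 the list had moved the other way, with 8 genes higher, 1 lower and a median of 0.18, and Fdps had changed by 0.63.

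Lysosome and autophagy genes were higher. Of 23 tested (28 listed), 13 were higher and 0 lower, with a median of 0.30. Wipi1, which binds the phospholipid of forming autophagosomes, read 8.12, 8.15 and 8.04 at day 6, against 6.66, 6.61 and 6.75 at day 4, a 2.69-fold rise (log2 change 1.43, SE 0.16, limma adjusted p = 9.73e-07), with 1.31 at a second probe. Ulk1, the kinase that starts autophagy, rose by 1.00 (SE 0.09). Hexa, a subunit of the lysosomal enzyme hexosaminidase A, read 9.84, 9.88 and 9.91, against 8.76, 8.88 and 9.04. Sqstm1 (p62), the receptor that delivers cargo to autophagosomes, rose by 0.57, and the cathepsins Ctsb and Ctsd by 0.44 and 0.53. The days do not overlap for any of Wipi1, Ulk1, Hexa and Sqstm1, which also held for 50.1% of all genes tested and 97.5% of called genes.

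Genes of the integrated stress response, by which cells that lack amino acids or fold proteins poorly raise Atf4 and its targets, were higher as well. Of 27 tested (31 listed), 12 were higher and 2 lower, with a median of 0.32. Atf5, a transcription factor of this response, read 8.98, 9.21 and 9.32 at day 6, against 7.61, 7.71 and 7.93 at day 4 (change 1.42, SE 0.12, limma adjusted p = 3.09e-08). Chac1, which degrades glutathione, read 10.91, 10.67 and 10.74, against 9.58, 9.78 and 9.70, a change of 1.09 (SE 0.10). Cebpb and Trib3, a transcription factor and a pseudokinase, rose by 1.08 and 0.94. Chac1 and Trib3 had already changed by 1.34 and 1.07 between days 2 and 4, when 16 genes of the list were called higher. Atf4 itself had a change of 0.16 that did not pass the test (limma adjusted p = 0.456). The 2 genes that fell, Slc7a3 (a cationic amino acid transporter) and Phgdh (serine synthesis), did so by 0.75 and 0.49. Heat shock and unfolded protein genes were called in 1 of 14 tested (21 listed): Pdia4, a disulfide isomerase, fell by 0.33, and this call was lost without day 4 replicate 2 and with median centring. With a replicate block for the BeadChip, 1 gene of the list was higher and 2 were lower.

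Promoters are shown for 4 called genes, each of which holds the short motif named for its list. They were taken from the called list members with that motif in order of lowest adjusted p. The capitals mark the motif. The sequences run 5′ to 3′ on the gene's strand, from 250 bases before to 50 bases after the start site, and come from RefSeq (GRCm38.p6).
Chac1: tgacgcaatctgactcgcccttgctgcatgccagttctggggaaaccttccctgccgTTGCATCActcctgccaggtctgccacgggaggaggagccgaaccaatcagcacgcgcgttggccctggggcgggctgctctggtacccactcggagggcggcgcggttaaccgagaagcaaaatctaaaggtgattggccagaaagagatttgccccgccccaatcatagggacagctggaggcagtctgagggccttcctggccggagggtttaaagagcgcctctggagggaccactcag
Nupr1: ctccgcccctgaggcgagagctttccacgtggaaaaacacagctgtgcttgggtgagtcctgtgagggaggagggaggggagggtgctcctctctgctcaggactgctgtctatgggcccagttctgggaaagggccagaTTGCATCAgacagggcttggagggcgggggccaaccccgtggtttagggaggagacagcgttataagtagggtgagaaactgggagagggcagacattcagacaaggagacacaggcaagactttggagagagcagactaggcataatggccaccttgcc
Ctsd: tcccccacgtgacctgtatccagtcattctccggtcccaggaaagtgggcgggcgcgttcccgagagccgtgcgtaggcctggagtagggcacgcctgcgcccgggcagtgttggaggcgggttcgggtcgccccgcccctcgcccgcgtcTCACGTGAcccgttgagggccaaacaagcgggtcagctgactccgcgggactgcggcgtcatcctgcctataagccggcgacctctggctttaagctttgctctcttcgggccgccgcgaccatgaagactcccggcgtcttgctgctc
Hmgcs1: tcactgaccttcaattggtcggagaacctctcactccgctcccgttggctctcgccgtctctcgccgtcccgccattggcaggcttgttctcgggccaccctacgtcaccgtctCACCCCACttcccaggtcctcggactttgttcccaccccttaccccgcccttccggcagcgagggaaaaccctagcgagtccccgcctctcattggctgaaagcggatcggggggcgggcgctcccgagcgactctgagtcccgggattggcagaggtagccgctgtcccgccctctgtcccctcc
They lie at chr2:119350992-119351291 (Chac1, plus strand), chr7:126625421-126625720 (Nupr1, minus strand), chr7:142387778-142388077 (Ctsd, minus strand) and chr13:119690101-119690400 (Hmgcs1, plus strand). Both strands were searched for each motif in the 32851 promoters used here. Part of the genome was left out of this search, so list members located there are not among the genes with a sequence. The amino acid response element TTGCATCA was in the promoters of 6 of 22 stress response genes with a sequence, and of 1.03% of the 27025 genes. Of those 6, Chac1, Nupr1, Aars and Vldlr were called higher at day 6, and Pycr1 and Slc7a11 had changes of 0.21 and 0.29 that did not pass. Nupr1, a stress-induced chromatin protein, rose by 0.70. The palindromic E-box of lysosomal genes, TCACGTGA, was in 5 of 19 lysosome and autophagy genes with a sequence and in 1.12% of the 27025 genes. Ctsd and Atp6v0d1 of these were called higher, and Ctsa, Gla and Mcoln1 had changes of 0.08 to 0.19 that did not pass. The sterol regulatory element core CACCCCAC was in 1 of 16 cholesterol genes with a sequence, Hmgcs1, which fell by 0.49, and in 3.3% of the 27025 genes. The shorter E-box CACGTG, which the lysosomal motif contains, was in 4 of 20 ribosome biogenesis genes with a sequence and in 8.09% of the 27025 genes. A match describes the letters of this window only.

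Genes for making ribosomes fell, and most ribosomal proteins were not called. Of 23 tested ribosome biogenesis genes (29 listed), 13 were lower and 0 higher, with a median of -0.29. Without day 4 replicate 2, 8 were lower. Ncl (nucleolin) read 9.50, 9.57 and 9.35 at day 6, against 10.67, 10.89 and 10.71 at day 4, 2.43-fold lower (log2 change -1.28, SE 0.12, limma adjusted p = 9.41e-08). Polr1b, a subunit of RNA polymerase I, fell by 1.05, and Pes1 and Bop1, which act together in processing the large subunit RNA, by 0.79 and 0.72. Of 30 tested ribosomal proteins (45 listed), 2 were higher, 3 lower and 25 not called. Rpl22 rose by 0.55, and Rps19, among the 3 that fell, changed by -0.78 at 1 probe and 0.60 at another, so its direction is uncertain.

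The factors that define pluripotency stayed expressed and changed by small amounts. Pou5f1 (Oct4) read 12.33, 12.39 and 12.32 at day 6, against 12.64, 12.61 and 12.66 at day 4, a change of -0.29 (SE 0.09, limma adjusted p = 0.0149), with -0.60 at a second probe. Nanog read 13.08, 13.06 and 13.07, against 12.73, 12.86 and 12.70, a change of 0.30 (limma adjusted p = 0.0206), and its other 2 probes changed by 0.79 and 0.44. Esrrb, the gene targeted in the knockdown arm, read 14.01, 14.04 and 13.98, against 13.71, 13.73 and 13.73, a change of 0.29 (limma adjusted p = 0.0436), with 0.04 at a dimmer probe. Sox2 changed by 0.08 and did not pass (limma adjusted p = 0.556), with overlapping days. These calls are narrow: Esrrb lost its call when any 1 of the 6 arrays was left out, Nanog without day 6 replicate 1 or 3 or day 4 replicate 1 or 3, and Pou5f1 without day 6 replicate 3. Esrrb and Nanog also lost it with median centring.

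Of 20 tested genes of general pluripotency (22 listed), 12 were lower and 1 higher, and their median of -0.55 was the lowest of the 32 lists. Lin28a, the RNA-binding protein that blocks let-7 maturation, read 7.93, 8.13 and 7.65 at day 6, against 9.21, 9.30 and 9.45 at day 4 (change -1.42, SE 0.12, limma adjusted p = 4.67e-08), and its other 2 probes changed by -1.11 and -1.23. Gdf3, a TGF-beta family ligand, fell by 0.72. The naive network was divided: of 17 tested (20 listed), 7 were higher, 5 lower and 5 not called, with a median of 0.08. Tbx3, a T-box factor that sustains self-renewal, read 10.44, 10.34 and 10.21, against 9.15, 9.31 and 9.25, a change of 1.09 (SE 0.11), and Tfcp2l1, a LIF-responsive factor, rose by 0.58. Gbx2, a homeobox gene induced by LIF, read 11.24, 11.35 and 11.30, against 12.50, 12.68 and 12.71, a change of -1.33 (SE 0.09, limma adjusted p = 1.38e-09), with -0.57 at a second probe. Manba, a lysosomal mannosidase in the naive list, fell by 0.90. The naive counts are fragile: 4 genes were higher without day 6 replicate 1 or 3 or day 4 replicate 2 or 3, 3 were lower without day 6 replicate 1 or 2 or any 1 of the day 4 arrays, and 2 were lower with median centring.

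Lists of 5 signalling pathways were counted, and in 4 of them more genes were lower than higher. Among all genes tested, 16.5% were lower and 19.2% higher. For the Nodal and activin pathway, 8 of 14 tested genes (16 listed) were lower and 1 higher, with a median of -0.48. Of the lower genes, Tdgf1, Lefty1 and Lefty2 are also counted in the general pluripotency list. Lefty1, an extracellular inhibitor of Nodal that Nodal itself induces, read 9.15, 9.02 and 9.18 at day 6, against 10.65, 10.74 and 10.72 at day 4, 3.01-fold lower (log2 change -1.59, SE 0.10, limma adjusted p = 6.43e-10). Its paralogue Lefty2 fell by 1.32, and Inhbb, a subunit of activin B, by 1.18. Nodal itself had a change of 0.09 that did not pass, and Acvr1b, a type I receptor, rose by 0.79 at the brightest of its 3 probes, the others giving 0.54 and -0.12. Without day 6 replicate 1, 5 genes of the list were lower, and with median centring 4.

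For BMP, 4 of 11 tested genes (16 listed) were lower and 2 higher. Id1 and Id3, helix-loop-helix inhibitors that BMP induces, fell by 1.45 and 1.23, and Id1 read 8.37, 8.67 and 8.66 at day 6, against 10.01, 10.04 and 10.01 at day 4. The ligand Bmp4 fell by 0.69, and another, Bmp7, rose by 0.57. For FGF and ERK, 6 of 15 tested genes (18 listed) were lower and 0 higher, and the median, -0.13, turned to 0.05 with median centring. Spry4, a feedback inhibitor of the pathway, read 9.10, 9.11 and 9.00, against 10.41, 10.37 and 10.23 (change -1.27, SE 0.09, limma adjusted p = 4.38e-09). Egr1 and Etv4, transcription factors induced by ERK, fell by 0.95 and 0.57, and Ier3, an early response gene, by 0.81.

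Of 18 LIF and STAT3 genes, all tested, 5 were higher and 3 lower, and 3 were higher without day 6 replicate 1 or 2 or day 4 replicate 1. Besides Gbx2, the ones lower were Socs2, by 0.66, and Myc, by 1.29, with Myc detected on 1 of 3 arrays at day 6. A dimmer Socs2 probe went the other way, with a rise of 0.12. Of 14 tested Wnt genes (18 listed), 4 were lower (28.6%) and 1 higher (7.14%). The share called in either direction was that of all genes, 35.7%. The median of -0.06 turned to 0.04 with median centring and to 0.07 with a stricter detection filter. Sp5, a direct Wnt target, read 5.17, 5.29 and 5.49 at day 6, against 6.24, 6.74 and 6.79 at day 4, a change of -1.27 (SE 0.14). Lef1, a nuclear effector of Wnt, was undetected at day 6 and at least 1.66-fold lower there (limma adjusted p = 1.55e-06); such a bound sets each undetected array to its detection floor or its own signal, whichever is higher. Notum, which inactivates Wnt ligands, and the receptor Fzd7 fell by 0.79 and 0.65.

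Lineage genes moved in several directions. In a bulk sample, fewer cells of a type and less RNA per cell cannot be told apart. Of 11 tested primed epiblast genes (15 listed), 6 were lower and 1 higher, with a median of -0.37. Lef1, Dnmt3b and Foxa2 among the lower genes, and Krt18, the higher one, are counted in other lists too. Pou3f1 (Oct6), a POU factor of the later epiblast, read 7.30, 7.13 and 7.13 at day 6, against 8.61, 8.71 and 8.91 at day 4, a change of -1.56 (SE 0.10, limma adjusted p = 1.64e-09). Grhl2, an epithelial transcription factor, fell by 1.83, and Dnmt3b, which sets new DNA methylation, by 0.87. Dnmt3l and Uhrf1, cofactors of DNA methylation, fell by 0.59 and 0.38, the call of Uhrf1 being lost without day 6 replicate 1 or day 4 replicate 3, and 4 of 8 tested DNA methylation genes (12 listed) were lower and 0 higher.

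Of 7 tested neural and ectoderm genes (16 listed), 3 were lower and 0 higher. Gap43, a growth cone protein, read 6.65, 6.49 and 6.42, against 8.06, 8.21 and 8.22, a change of -1.64 (SE 0.10). Sox11 fell by 1.05 (-0.69 and -1.30 at its other detected probes). Among the 5 neural markers, Sox1 and Pax6 were undetected on both days, and the summed marker signal was 101.7 to 109.4 at day 6, against 130.6 to 144.3 at day 4.

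Trophectoderm genes were higher in 8 of 18 tested (22 listed) and lower in 1, with a median of 0.25. The simple epithelial keratins led them. Krt7 read 9.18, 9.15 and 9.04 at day 6, against 7.63, 7.84 and 7.57 at day 4 (change 1.44, SE 0.10, limma adjusted p = 2.50e-09), Krt8 rose by 1.40 and Krt18 by 0.84. Tfap2c, an AP-2 factor active in trophectoderm and germ cells, read 12.03, 12.01 and 12.05, against 10.98, 11.02 and 11.09, a 2.00-fold rise, and its other probes changed by 0.63 and 0.68. Cdx2, the factor that specifies trophectoderm, fell by 0.36, a call lost without day 6 replicate 3 and with median centring. Of the 6 trophectoderm markers, Hand1 and Plac1 were undetected on both days, and the summed signal was 591.1 to 650.4 at day 6, against 262.9 to 299.9 at day 4, with Krt7 as the 1 marker that rose. Without day 4 replicate 1, 5 genes of the list were higher.

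Of 14 tested genes of primitive and extraembryonic endoderm (19 listed), 5 were higher and 1 lower, with a median of 0.22, and with median centring 8 were higher. Col4a2 and Col4a1, the collagen IV chains of basement membrane, rose by 1.35 and 1.22, and Col4a2 read 10.98, 11.12 and 10.98 at day 6, against 9.56, 9.81 and 9.66 at day 4. Gata6, a factor of primitive endoderm, read 8.35, 8.37 and 8.22, against 7.09, 7.61 and 7.25, a change of 1.00 (SE 0.12, limma adjusted p = 1.61e-06). Sox17, another, rose by 1.04 and was detected on 1 of 3 arrays at day 4. Of the 7 endoderm markers, Afp and Ttr were undetected on both days, and the summed signal was 863.9 to 887.9 at day 6, against 565.2 to 676 at day 4. The part of trophectoderm-like or endoderm-like cells in these results was not tested.

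Of 11 tested fibroblast and mesenchymal genes (19 listed), 3 were higher (27.3%) and 2 lower (18.2%), against 19.2% and 16.5% of all genes. With median centring or a stricter detection filter, 5 were higher. Acta2, smooth muscle actin, rose by 1.74 at a probe detected on 2 of 3 arrays at day 4, and its other 2 probes, undetected on both days, gave 0.07 and 0.10. Fbln2 and Fn1, matrix glycoproteins, rose by 1.11 and 0.70, and Vim (vimentin) fell by 0.84. Of the 8 fibroblast markers, Col1a1, Col1a2, Col3a1, Postn, Lum and Dcn were undetected on both days. Thy1 and Twist1 were detected on all 3 arrays of each day. Thy1 fell by 0.47 (limma adjusted p = 0.000865), and Twist1 had a change of 0.05 that did not pass. The summed signal of the 8 markers was 337.5 to 361.5 at day 6, against 422.8 to 454.7 at day 4.

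Of 10 tested primitive streak genes (17 listed), 1 was higher and 2 lower, a share called of 30%, against 35.7% of all genes. Evx1 was undetected at day 6 and at least 1.46-fold lower (limma adjusted p = 1.01e-07). T (brachyury), the streak's defining factor, read 5.11, 5.08 and 5.46 at day 6, against 5.32, 5.15 and 5.21 at day 4, and the days overlap. Of 17 tested epithelial junction genes (20 listed), 4 were higher, 1 lower and 12 not called, and the share called higher, 23.5%, was not far from the 19.2% of all genes, with Cldn4 (claudin 4) and Dsg2 (desmoglein 2) rising by 0.83 and 0.74.

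Germline genes were higher in 7 of 13 tested (24 listed) and lower in 2, with a median of 0.36. Taf7l, a germ cell paralogue of a TFIID subunit, had the largest rise of any gene that met the naming rule. It read 9.35, 9.23 and 9.17 at day 6, against 6.98, 7.24 and 7.04 at day 4, a 4.48-fold difference (log2 change 2.16, SE 0.11, limma adjusted p = 1.31e-10). Dazl, a germ cell RNA-binding protein, rose by 1.47 (0.14 at a second probe), Piwil2, which binds piRNAs, by 0.81 and Tex11, a meiosis gene, by 0.79. The 11 germline genes not tested include Sycp1, Sycp3 and Stra8. Of 5 tested two-cell-like genes (12 listed), Tmem92 rose by 0.83 and Zfp352 fell by 0.32, a call lost when any 1 of the 6 arrays was left out.

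Glycolysis genes were called in both directions. Of 16 tested glycolysis genes (19 listed), 5 were higher (31.2%) and 4 lower (25%), against 19.2% and 16.5% of all genes. The median of -0.02 turned to 0.02 with median centring. Ldhb, the heart-type subunit of lactate dehydrogenase, read 13.17, 13.12 and 13.23 at day 6, against 12.04, 12.15 and 12.07 at day 4, a change of 1.09 (SE 0.11), while Ldha, the muscle-type subunit, fell by 0.50. Hk1 (hexokinase 1) rose by 0.87, and Aldoc (aldolase C) fell by 0.73. Hypoxia targets were lower in 6 of 18 tested (20 listed) and higher in 2, with a median of -0.22, against 0.63 between days 2 and 4, when 11 were higher. Egln3, a prolyl hydroxylase that marks HIF for decay, read 8.63, 8.90 and 8.73, against 9.72, 9.80 and 9.69, a change of -0.99 (0.08 at a second probe), and Ankrd37 fell by 1.16. Vegfa, an angiogenic growth factor, and P4ha2, a collagen prolyl hydroxylase, rose by 0.82 and 0.80. Of 37 tested genes of oxidative phosphorylation and the TCA cycle (39 listed), 6 were lower, 1 higher and 30 not called. The share lower, 16.2%, was close to the 16.5% of all genes, and the share higher was 2.7%, against 19.2%. The number lower was 3 without day 4 replicate 2 and 2 without day 4 replicate 3. It was 0 with median centring and 11 in a fit of the 6 arrays alone.

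Of 20 tested interferon and antigen presentation genes (25 listed), 5 were higher (25%) and 6 lower (30%), against 19.2% and 16.5% of all genes. The counts were 2 higher without day 4 replicate 2 and 3 lower with median centring. Psmb10, an immunoproteasome subunit, fell by 1.20 with -1.22 at a second probe, while Tap2, a peptide transporter, rose by 1.13 and was detected on 2 of 3 arrays at day 4. Of 21 tested imprinted genes (23 listed), 5 were higher (23.8%) and 6 lower (28.6%), or 3 lower with median centring. Phlda2, a growth restrictor of the placenta, Cdkn1c and Mest fell by 1.15, 0.96 and 0.61, and Igf2r, which clears Igf2, rose by 0.66.

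The 12 largest rises and 12 largest falls among called genes with non-overlapping arrays, which 5056 of the 5186 called genes had (50.1% of all genes tested had such arrays), were spread over many functions, and Taf7l, Acta2, Ccnd2 and Grhl2 of them are members of the lists above. After Taf7l came Psd2, a guanine exchange factor for ARF6, which was undetected at day 4 and at least 3.19-fold higher at day 6. Svop, a synaptic vesicle protein, Scarf2, a scavenger receptor, and Col20a1, a collagen, rose by 1.86, 1.83 and 1.79. Scarf2 read 8.13, 7.98 and 8.13 at day 6, against 6.27, 6.27 and 6.22 at day 4. Acta2, Parm1 (a mucin-like protein) and Kcnc4 (a potassium channel) rose by 1.74, 1.74 and 1.61, and Kcnc4 was detected on 2 of 3 arrays at day 4. Cox6a2, the muscle isoform of a cytochrome oxidase subunit, rose by 1.58. Abca3, a lipid transporter, Got1l1, a relative of aspartate aminotransferase, and Serpine2, a protease inhibitor, rose by 1.56, 1.54 and 1.54, with 0.85 at a second Serpine2 probe.

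Among the falls, Wt1, a zinc finger factor of kidney and gonad, read 5.08, 4.72 and 5.19 at day 6, against 7.37, 7.55 and 7.61 at day 4. It was 5.71-fold lower (log2 change -2.51, SE 0.14, limma adjusted p = 3.33e-10) and detected on 2 of 3 arrays at day 6. Ccnd2 was next. Soga3 fell by 2.23 (-0.40 at an undetected probe), Cabs1, a calcium-binding sperm protein, fell by 2.04, and the Kazal-type protease inhibitors Spink1 and Spink10 fell by 2.02 and 2.01. Spink1 read 9.23, 9.32 and 9.33 at day 6, against 11.25, 11.42 and 11.27 at day 4. Enox1, an electron transfer protein of the cell surface, fell by 1.96. Pdgfc, a growth factor (-0.18 at a dimmer probe), and Cphx1, a homeobox gene of early embryos, were undetected at day 6 and at least 2.76-fold and 3.18-fold lower. Grhl2, Zscan5b (a zinc finger gene detected on 1 of 3 arrays at day 6) and Aass, which degrades lysine, fell by 1.83, 1.74 and 1.71.

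**Figure D3:**
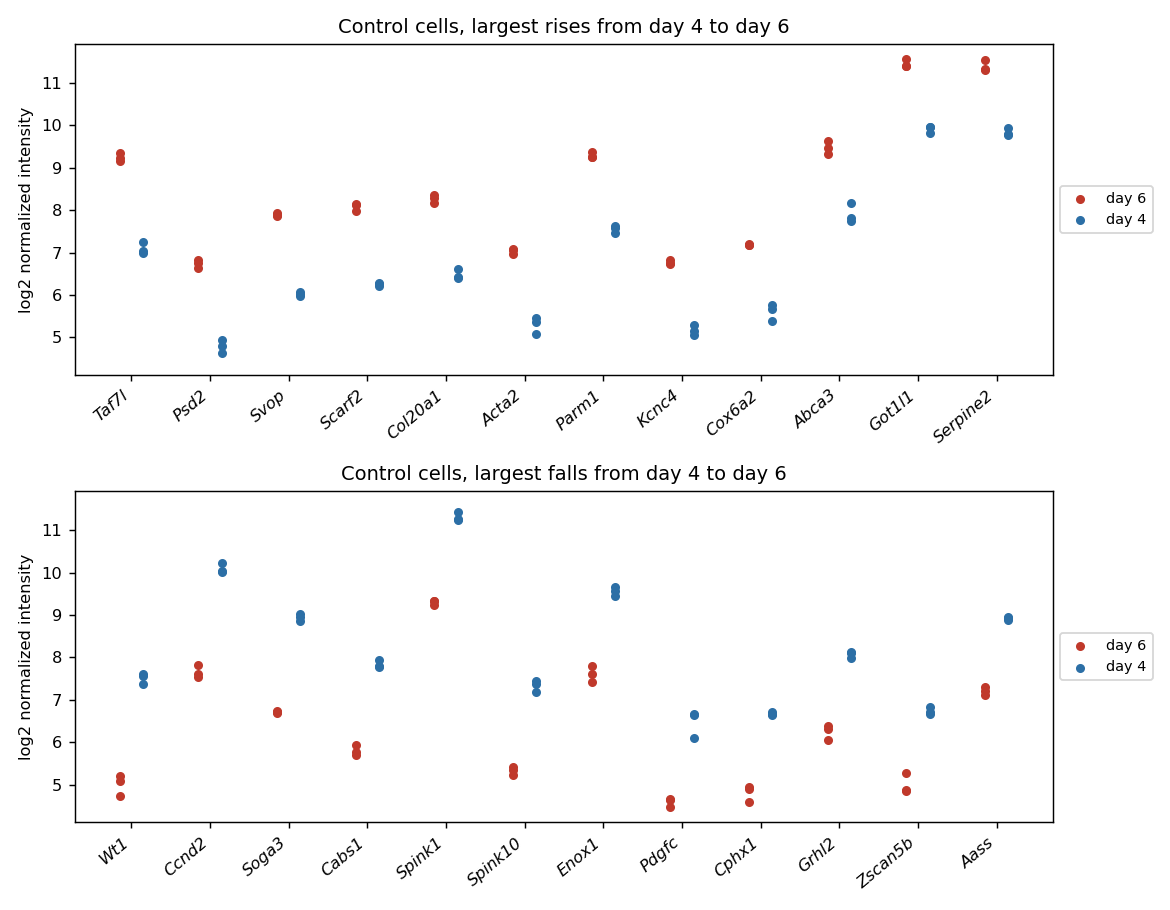
Log2 normalized intensity on each of the 3 arrays at day 6 (red) and at day 4 (blue) in control cells, for the 12 largest rises (top) and the 12 largest falls (bottom) that met the naming rule. The arrays of the 2 days do not overlap for any gene shown, which the rule required; Taf7l averaged 9.25 at day 6 and 7.09 at day 4, and Wt1 5.00 and 7.51.

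The second question was whether knockdown cells made the same change between day 4 and day 6. They share no array with the control comparison, and the difference between the 2 changes was tested as control minus knockdown. In knockdown cells 3102 genes (21.3%) were called, 1528 higher (10.5%) and 1574 lower (10.8%), and the median absolute change was 0.17, against 0.22 in control cells. Of the genes called higher in control cells, 836 were also called higher in knockdown cells, which is 29.9% of the control list and 54.7% of the knockdown list. For genes called lower the number was 802, or 33.5% and 51.0%. Opposite calls were made for 95 genes higher in control cells and 71 lower in control cells. The difference itself passed the test for 2081 genes (14.3%), 1183 above 0 (8.14%) and 898 below 0 (6.18%), and 1575 of the genes called in control cells were among them.

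The fall of cholesterol synthesis genes was seen in both arms. The list median was -0.49 in control cells and -0.45 in knockdown cells, with 16 and 15 genes lower, and the difference was called for 1 gene of 23. The p53 targets had medians of 0.45 in control cells and 0.31 in knockdown cells, and the difference was called for 2 of 23, Ccng1 and Trp53inp1. Lefty1 and Lefty2 changed by -1.59 and -1.32 in control cells, against -1.19 and -1.14 in knockdown cells, with differences of -0.40 (SE 0.14) and -0.18 (SE 0.13) that did not pass (limma adjusted p = 0.057 and 0.395).

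Differences were called for more members of the G1, lysosome and ribosome biogenesis lists. Ccnd2 changed by -2.44 in control cells and -0.40 in knockdown cells, a difference of -2.03 (SE 0.16, limma adjusted p = 7.71e-08), and Ccnd1 by -1.53 and -0.52, a difference of -1.02 (SE 0.14). Of the 16 G1 genes, 7 had a difference below 0 and 1 above. Of 23 lysosome and autophagy genes, 10 had a difference above 0 and 0 below, the median change being 0.30 in control cells and 0.03 in knockdown cells. Wipi1 changed by 1.43 and 0.24, and Hexa by 0.98 and 0.08. Of 23 ribosome biogenesis genes, 6 had a difference below 0 and 0 above, with medians of -0.29 and -0.01, and Ncl changed by -1.28 and -0.13. The differences were above 0 for 8 of 16 glycolysis genes and for 8 of 13 germline genes, and below 0 for 0 genes of either list. The medians of the glycolysis list were -0.02 in control cells and -0.31 in knockdown cells.

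Lin28a and Gbx2 also parted the arms. Lin28a changed by -1.42 in control cells and -0.10 in knockdown cells, a difference of -1.32 (SE 0.18, limma adjusted p = 4.18e-05). Gbx2 fell by 1.33 in control cells and rose by 0.38 in knockdown cells, and Bmp4 fell by 0.69 in control cells and rose by 1.02 in knockdown cells. Among the genes that met the naming rule, T and Sp5 had the largest differences in this direction. T had a change of -0.01 in control cells and 3.42 in knockdown cells, a difference of -3.43 (SE 0.18, limma adjusted p = 3.79e-10), and Sp5 changed by -1.27 and 2.09. Car2, a carbonic anhydrase, changed by -1.08 and 0.91. Fgf8 and Wnt8a, ligands of the primitive streak, were undetected in control cells on both days, and Fgf8 in knockdown cells at day 4 as well, so their differences have no exact size.

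In the other direction, Cox6a2 rose by 1.58 in control cells and was undetected in knockdown cells on both days, so that its difference, called at a limma adjusted p of 7.71e-08, has no exact size. Pygl, liver glycogen phosphorylase, changed by 1.09 and -0.62, and Dnaic1, a dynein chain of cilia, by 1.42 and -0.28. Fam183b and Pdzk1, a scaffold protein of transporters, fell in both arms, by 0.87 and 0.24 in control cells and by 2.55 and 1.87 in knockdown cells. A second Pdzk1 probe changed by 0.15 in control cells. The control call of Pdzk1 was lost with median centring, without day 6 replicate 1 or 2 and without day 4 replicate 2 or 3. Myl3, a cardiac myosin light chain, was undetected in control cells on both days.

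**Figure D4:**
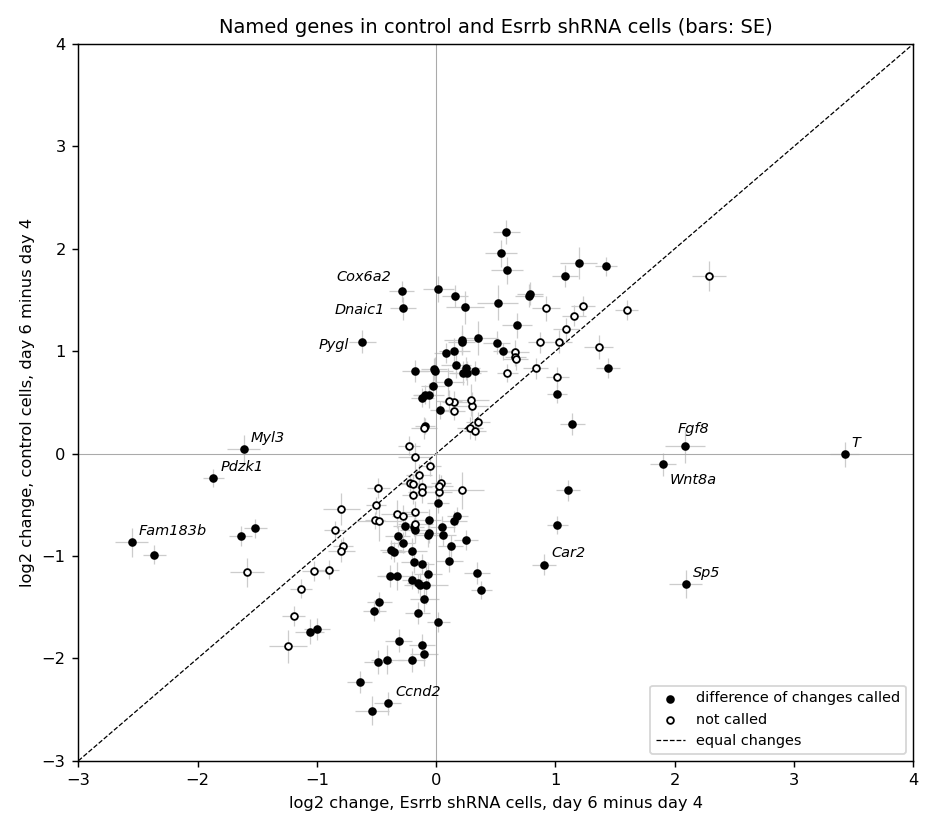
Log2 change from day 4 to day 6 of the 155 named genes in control cells (vertical) against knockdown cells (horizontal), with standard errors as grey bars. Filled points passed the test of the difference (100 genes) and the dashed line marks equal changes. Genes were named partly for large changes or called differences, and 14.3% of all genes tested passed. The 12 genes named for the largest differences are labelled, with T at -0.01 in control cells and 3.42 in knockdown cells; Fgf8, Wnt8a and Myl3 were undetected in control cells on both days and Cox6a2 in knockdown cells.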

How the data were processed

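Total RNA from each sample was labelled with biotin and hybridised to an Illumina MouseWG-6 V1.1 BeadChip, 1 array per sample, per the labels. The deposited raw table holds probe intensity, which per the file headers was summarised with BeadStudio 3.2.6 without normalization. Its detection score is a fraction from 0 to 1 per the file headers, and 1 minus the score was taken as the detection p. The number of beads behind each value was deposited as well (unit: other). A second deposited table holds the authors' normalized intensity, by a method not given in the sources used here. Its identifiers could not be named, so it served for counts only.

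Of 34325 target names, 16079 matched a RefSeq symbol (GRCm38.p6), 6654 were updated through 1 synonym, 11228 were kept as given and 27 were left unnamed, and 337 control and non-mouse probes were left out. In R 4.3.3 with limma 3.58.1, background was corrected by normexp from the detection p with an offset of 16, followed by quantile normalization and log2. Probes with a detection p under 0.05 on all 3 arrays of at least 1 of the 6 groups were kept (19461), and the probe with the highest mean stood for its gene (14534). One limma model of 6 groups was fitted to all 18 arrays, so the groups share an estimate of spread; tests are two-sided with a Benjamini-Hochberg threshold of 0.05 over all genes. The number of arrays limits the precision.

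The samples, the 32 gene lists (671 genes, 532 tested) and the rule for named genes were chosen with earlier results of these data known. The rule named Esrrb with Nanog, Pou5f1 and Sox2, the 12 largest rises and falls among called genes with non-overlapping arrays and detection on all arrays of the higher day, the 4 members per list at most that had the lowest adjusted p, and the 6 largest differences from knockdown cells in each direction. Clone names, accessions and predicted loci were left out. The replicate number is the BeadChip in the column headers, which was fitted as a block among the alternatives. The others were the arrays in the fit, background correction, normalization, detection filter, choice of probe, each array left out and the authors' values. Values of a few single genes of the lists are not reported here.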

Additional observations from a re-analysis of the deposited data

Results flagged for a closer look

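A test of the difference between the day 4 to day 6 change of control cells and that of knockdown cells picked out the results below, each given as control minus knockdown on the log2 scale. Of 155 named genes, 100 had a called difference, against 14.3% of all genes tested. The naming rule took genes for large changes or called differences, so a high share among them was built in. Of the 155, 7 were called in opposite directions in the 2 arms. The differences listed are those of the most extreme genes and of genes with opposite calls, together with Esrrb.

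For Esrrb, the gene targeted in the knockdown arm, the difference was -0.85: its signal rose by 0.29 in control cells, against 1.14 in knockdown cells. The lowest values were -3.43 for T and -3.37 for Sp5. Ccnd2 differed by -2.03, Car2 by -1.99, Bmp4 by -1.71, Gbx2 by -1.71 and Cdx2 by -1.46. The fitted differences of Fgf8 (-2.01), Wnt8a (-2.00) and Evx1 (-1.51) have no exact size or rank, because a group was not detected: Fgf8 and Wnt8a in control cells on both days, Fgf8 also in knockdown cells at day 4, and Evx1 in control cells at day 6. Values above 0 were found for Pygl (1.71), Dnaic1 (1.70), Fam183b (1.69) and Pdzk1 (1.63). The same limit holds for Cox6a2 (1.87), undetected in knockdown cells on both days, and for Myl3 (1.66), undetected in control cells on both days. Groups of 3 arrays were not searched for outlying arrays.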

How the results depend on the processing

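With median centring, 1130 genes were lower and 3725 higher, against 2392 and 2794, and 414 differences from knockdown cells lay below 0, against 898. The difference for Nanog turned to 0.40 (limma adjusted p = 0.020) when the probes of a gene were averaged, against -0.05 at its brightest probe. With 1 array left out, 4262 to 4696 genes were called, 2307 to 2526 higher and 1935 to 2170 lower, and 1631 to 1881 differences, 929 to 1043 above 0 and 702 to 838 below. With a replicate block for the BeadChip, 5663 genes were called. Deviations from group means of arrays with the same number correlated at 0.106, 0.1 and 0.078, each the best match of its number. No call of a named gene was lost under that block, and Hsp90ab1 and Hspa5 gained one. In the authors' values, taken without a detection filter, 6021 of 46632 probes passed (12.9%). That share is of probes and not of filtered genes, so it is not set against the 35.7% of genes. Without the filter on dim probes, the fit used here called 4777 of 31752 genes. Median centring ended the calls of 13 named genes, among them Esrrb, Nanog, Cdx2 and Tubb3. The causes were not tested. Probes near the detection floor limit what can be said of dim genes.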
